A study of Homo sapiens with 12 samples.

Results

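The aquaporin genes AQP1, AQP3, AQP7 and AQP11 were followed across untreated and drug-treated HK-2 cells, an immortalized line of the human proximal tubule. The 4 genes were found by their symbols among 58735 genes of the count table, which holds 14 protein-coding genes of the aquaporin family and 5 AQP7 pseudogenes. They were listed with their levels in these samples already known, so that their levels and fold changes against control are given as a description, with no p-value, and the counts of genes past a threshold are listed in the same sense. RNA was sequenced from 12 samples, 3 in each of 4 groups. The control group is labelled H2O. Exposure in the remaining groups lasted 48 h, to the contrast medium iohexol at 75 mg I/mL, to the platinum drug cisplatin at 5 μM or to the antibiotic vancomycin at 4 mM. All groups are cultures of the same line, without the other cell types or the flow of a tubule.

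Aquaporins are membrane proteins that form tetramers in which each subunit has its own pore. AQP1 is a water channel of red cells and of the proximal tubule and thin descending limb, where it carries most of the transcellular water flow. AQP3 and AQP7 are aquaglyceroporins, which also pass glycerol. In the kidney AQP3 lies in the basolateral membrane of collecting duct principal cells and AQP7 in the brush border of the straight proximal tubule, while AQP11 is an intracellular member found in the endoplasmic reticulum of proximal tubule cells. AQP3 and AQP11 can also carry hydrogen peroxide. The RNA measured here says nothing of the amount or the place of the proteins.

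AQP3 and AQP7 are neighbours, and the regions before the starts of AQP1, AQP3 and AQP7 are shown because AQP1 and AQP3 were both high under vancomycin while AQP3 and AQP7 lie side by side. On GRCh38, AQP7 (ENSG00000165269) spans positions 33383179 to 33402682 of chromosome 9 and AQP3 (ENSG00000165272) positions 33441154 to 33447633, both on the minus strand with 38471 bases between them. AQP1 (ENSG00000240583) spans 30911694 to 30925516 of chromosome 7 and AQP11 (ENSG00000178301) 77589391 to 77610355 of chromosome 11, both on the plus strand. The sequences below are the 250 bases before a RefSeq start of each gene (GRCh38.p14), written 5′ to 3′ on the strand of the gene, with TATAAA and GGGCGG on either strand in capitals. These starts lie inside the spans above, so that each window runs into the span of its gene. Regions before other starts are not shown, and AQP7 has 19 annotated transcripts.
AQP1, chr7:30911603-30911852, plus strand: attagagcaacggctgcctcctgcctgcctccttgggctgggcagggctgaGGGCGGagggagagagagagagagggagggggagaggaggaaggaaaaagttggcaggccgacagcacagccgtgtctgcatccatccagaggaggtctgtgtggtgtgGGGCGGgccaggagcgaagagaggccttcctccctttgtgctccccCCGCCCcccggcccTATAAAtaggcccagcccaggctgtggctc
AQP3, chr9:33447594-33447843, minus strand: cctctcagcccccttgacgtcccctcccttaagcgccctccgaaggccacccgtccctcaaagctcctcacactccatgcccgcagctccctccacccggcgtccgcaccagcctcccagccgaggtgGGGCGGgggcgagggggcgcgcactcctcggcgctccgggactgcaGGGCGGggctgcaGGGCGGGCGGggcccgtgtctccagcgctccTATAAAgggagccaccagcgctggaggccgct
AQP7, chr9:33402569-33402818, minus strand: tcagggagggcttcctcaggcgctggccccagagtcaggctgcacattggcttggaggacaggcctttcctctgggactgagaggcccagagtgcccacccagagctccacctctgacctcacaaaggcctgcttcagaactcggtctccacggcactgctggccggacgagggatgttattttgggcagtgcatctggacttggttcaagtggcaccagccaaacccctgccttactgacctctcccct
The TATA box letters TATAAA began 30 bases before the start of AQP1 and 32 bases before the start of AQP3, and were not found in the AQP7 region. These letters occur in 10.8% of 34788 regions of this length. The GC box letters GGGCGG, present in 42.6% of the regions, occurred 3 times in AQP1, 4 times in AQP3, where copies overlap, and 0 times in AQP7. Searched on both strands, TGAGTCA (AP-1, 4.21% of regions), TGACGTCA (CRE, 1.64%) and TGGAAA (the core of the tonicity element, 18.1%) were in none of the 3 windows. The GC content was 65.2% for AQP1, 73.6% for AQP3 and 60.8% for AQP7.

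Each library held 14057282 to 18177109 counts, and 3 counts, taken as the floor of detection for counting error only, stand for 0.177 to 0.218 CPM (counts-per-million, relative to the library total times its TMM scaling factor). Of 13 proximal tubule markers, 9 had at least 3 counts in every control sample, led by CDH6 and PAX8 at means of 520 and 372 CPM. Their summed level was 1440 to 1520 CPM in the control samples, 1320 to 1490 under iohexol, 531 to 554 under cisplatin and 1770 to 1930 under vancomycin. Defining transporters were low. The glucose transporter SLC5A2 had 7 to 35 counts per sample and the phosphate transporter SLC34A1 had 1 to 11, while SLC22A6 had 0 counts in all 12 samples, SLC22A8 had 1 count in all, and the endocytic receptor LRP2 had 0 to 3 counts per sample. Red cell markers summed to at most 0.338 CPM and immune markers to at most 0.405 CPM in any sample. In bulk RNA, a change in the number of cells that carry a transcript and a change in the transcript per cell cannot be told apart.

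All aquaporins were rare transcripts in these cells. Of the 14 protein-coding family genes, 13 had at least 1 count somewhere, and AQP1, AQP3, AQP7 and AQP11 were the 4 that passed the filter on low counts over all 12 samples. Their summed counts were 44 to 72 per control sample, 95 to 133 under iohexol, 94 to 111 under cisplatin and 98 to 135 under vancomycin. They held 92.1% of the family's counts in the control group, 94.1% under iohexol, 95.7% under cisplatin and 84.2% under vancomycin.

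**Figure D1:**
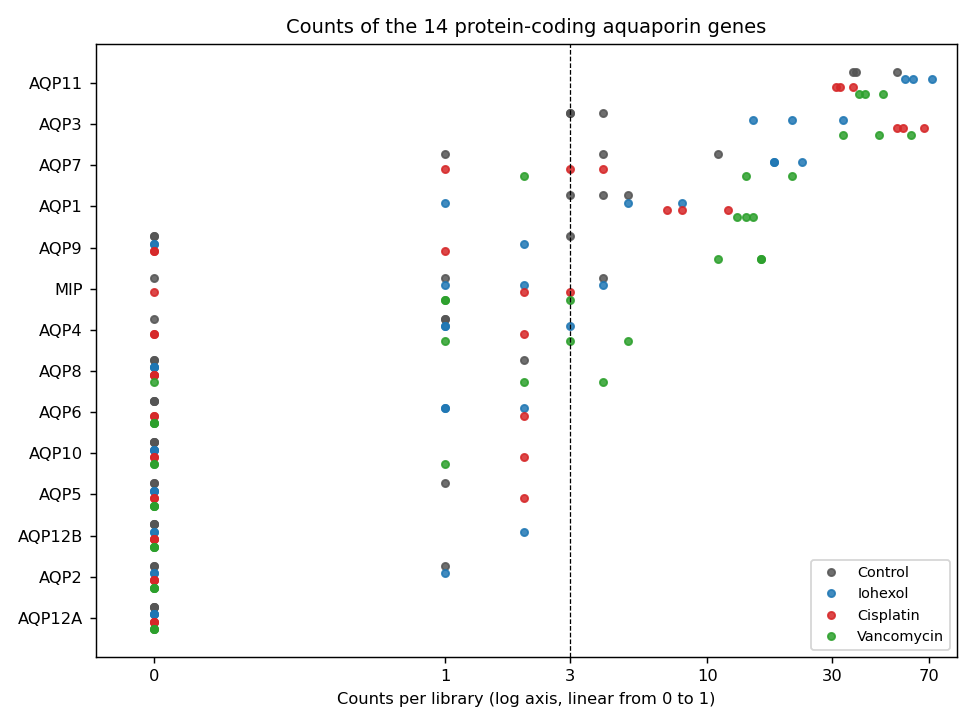
Counts per library (horizontal, log axis that is linear from 0 to 1, not scaled for depth) of the 14 protein-coding aquaporin genes (vertical, ordered by total), with 1 point per library colored by group and a dashed line at 3 counts. AQP11 lies between 31 and 72 counts in all libraries, AQP3 between 3 and 67, and AQP9 is at 11 to 16 in the 3 vancomycin libraries and at 0 to 3 elsewhere.

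On a scale per gene length, AQP11 was the leading aquaporin of untreated cells, at 1.19 ± 0.362 CPM per kb (SD, n = 3). AQP1, AQP3 and AQP7 followed at 0.079, 0.0756 and 0.0713 CPM per kb, with overlapping ranges, so that their order cannot be set. The order was different under cisplatin, where AQP3 was at 1.2 ± 0.16 CPM per kb (SD, n = 3) and AQP11 at 0.833 ± 0.0829 CPM per kb, and the lowest AQP3 sample (1.06) lay above the highest AQP11 sample (0.925). With vancomycin, AQP11 at 1.11 ± 0.126 CPM per kb and AQP3 at 1.00 ± 0.341 CPM per kb overlapped. With iohexol, AQP11 was at 1.76 ± 0.147 CPM per kb, above AQP3 at 0.516 ± 0.189, AQP7 at 0.249 ± 0.0275 and AQP1 at 0.0911 ± 0.0708.

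AQP3, the basolateral water and glycerol channel, had 3, 3 and 4 counts in the control samples, 21, 33 and 15 under iohexol, 67, 56 and 53 under cisplatin and 33, 60 and 45 under vancomycin. In CPM these were 0.188 to 0.263 in the control group, 1.00 to 2.11 under iohexol, 3.13 to 4.06 under cisplatin and 2.06 to 4.05 under vancomycin. Every treated sample lay above every control sample, and the control samples lay at or just above the floor of detection. Cisplatin gave the highest mean, and its samples overlapped those of vancomycin but not those of iohexol. The log2 fold changes against control were 2.75 (standard error, SE, 0.48) under iohexol, 3.94 (0.37) under cisplatin and 3.64 (0.45) under vancomycin. Since the 3 control samples held 10 counts in all, the ratios carry wide counting intervals, 6.88 (95% exact interval 3.52 to 15) under iohexol, 15.9 (8.45 to 33.8) under cisplatin and 13.2 (6.96 to 28.1) under vancomycin. In a fit of all 12 samples AQP3 was higher under cisplatin than under iohexol by 1.21 on the log2 scale (standard error 0.3). The corresponding difference of vancomycin minus cisplatin was -0.26 (0.28), and the samples of these drugs overlapped. No 31-base stretch of the AQP3 transcripts occurs in another annotated gene.

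**Figure D2:**
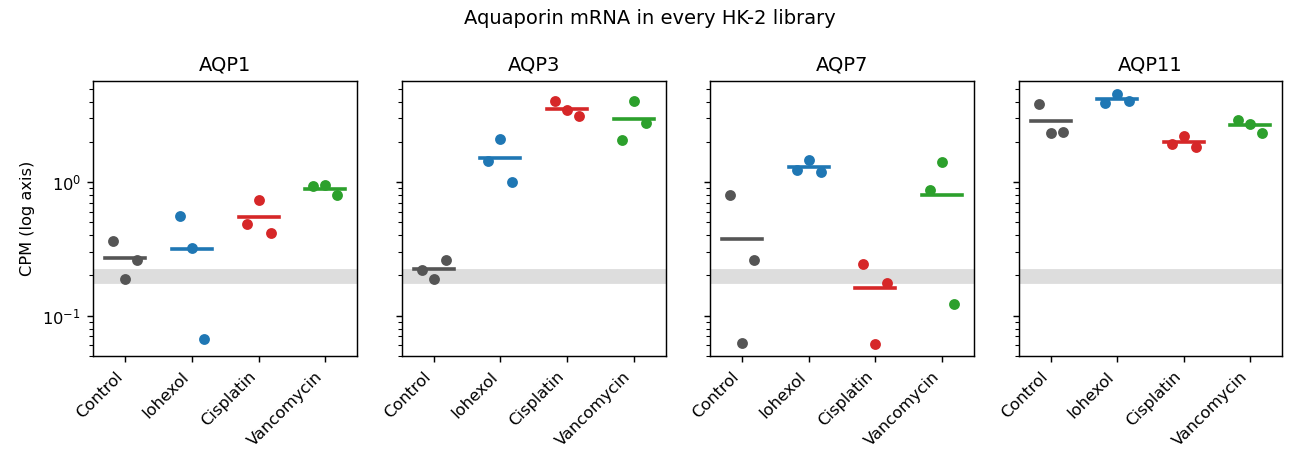
CPM (vertical, log axis) of AQP1, AQP3, AQP7 and AQP11 in each of the 12 libraries, with 1 point per library, a bar at the group mean and a grey band at the level of 3 counts. AQP3 moves from the grey band in the controls to between 1.00 and 4.06 CPM in all 9 treated libraries, whereas AQP11 stays between 1.83 and 4.60 CPM.

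Collecting duct principal cells are the usual site of AQP3 in the kidney, and their other markers were set beside it. AQP2, the vasopressin-regulated channel of these cells, had 1 count in 1 control sample, 1 count in 1 iohexol sample and 0 in the other 10 samples. Of the 9 markers, 4 had at least 3 counts in every sample of each group (AVPR2, SCNN1A, GATA3 and HSD11B2), while SCNN1B, SCNN1G, ELF5 and FXYD4 had at most 2 counts in any sample. Their summed level was 13.1 to 18 CPM in the control samples, 21.9 to 30 under iohexol, 10.8 to 11.9 under cisplatin and 23.6 to 24.3 under vancomycin. The sum was lowest under cisplatin, where the AQP3 mean was highest, but above all controls under vancomycin, whose AQP3 samples overlapped those of cisplatin. Under cisplatin GATA3 was higher than in the control group (means of 0.744 and 0.435 CPM), while AVPR2, SCNN1A and HSD11B2 were lower. Under vancomycin the markers also split. SCNN1A (means of 11 and 3.13 CPM) and AVPR2 (11.3 and 7.67 CPM) were higher than in the control group. HSD11B2 was lower (1.37 and 4.66 CPM), and GATA3 overlapped the controls (0.344 and 0.435 CPM). A relation of these markers to AQP3 was not tested. Summed markers of the thick limb and distal tubule stayed at 0.236 to 3.94 CPM, of podocytes at 5.61 to 22.4 CPM and of endothelium at 0 to 4.21 CPM over all samples.

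AQP1, the constitutive water channel of the proximal tubule, was close to the floor in these cells. It had 5, 3 and 4 counts in the control samples, 8, 5 and 1 under iohexol, 8, 12 and 7 under cisplatin and 15, 14 and 13 under vancomycin. The vancomycin samples lay above all other samples, at 0.801 to 0.945 CPM against 0.188 to 0.363 CPM in the control group, and the cisplatin samples at 0.413 to 0.739 CPM also lay above the controls. Iohexol samples spread from 0.0668 to 0.553 CPM on both sides of the controls. The log2 fold change under vancomycin was 1.67 (standard error 0.53), and 1.45 without control replicate 2. With iohexol and cisplatin AQP1 did not pass the filter on low counts, and only the ratios of summed counts are given, 1.16 (95% exact interval 0.499 to 2.75) and 2.03 (0.996 to 4.41), beside 3.34 (1.73 to 6.98) under vancomycin. Of the AQP1 exon bases 26.5% also belong to the overlapping gene AC004691.2, which had 0 counts in every sample.

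AQP7, a glycerol channel also known from fat cells, was the most uneven of the 4 genes between replicates. Its counts were 11, 1 and 4 in the control samples, 18, 23 and 18 under iohexol, 4, 1 and 3 under cisplatin and 14, 21 and 2 under vancomycin. The iohexol samples at 1.2 to 1.47 CPM lay together above the controls at 0.0627 to 0.798 CPM, whereas the vancomycin samples ranged from 0.123 to 1.42 CPM and overlapped every other group. The cisplatin samples, at 0.0616 to 0.242 CPM, overlapped the controls and lay below all iohexol samples. The log2 fold change was 1.85 (standard error 0.57) under iohexol and 1.08 (0.69) under vancomycin, while under cisplatin the gene did not pass the filter and the ratio of summed counts was 0.452 (95% exact interval 0.167 to 1.12). The value under iohexol was 1.31 without control replicate 2 and 1.65 without control replicate 3. With vancomycin it was 1.6 without vancomycin replicate 3 and 2.21 without control replicate 1. Over all fits that dropped a single sample, the AQP7 values ranged from 1.31 to 2.98 under iohexol and from 0.42 to 2.21 under vancomycin. In the fit of all 12 samples, cisplatin lay below iohexol by a log2 difference of -2.96 (standard error 0.75). Of the 31-base stretches of AQP7, 13.8% occur in other genes, its pseudogenes among them, which held 5 counts in all over the 12 samples.

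AQP11, the intracellular member, had the most counts of the family over the 12 samples, 540 against 393 for AQP3. The control samples had 53, 37 and 36 counts, the iohexol samples 57, 72 and 61, the cisplatin samples 32, 36 and 31 and the vancomycin samples 47, 40 and 38. In CPM the ranges were 2.32 to 3.85 in the control group, 3.94 to 4.60 under iohexol, 1.83 to 2.22 under cisplatin and 2.34 to 2.94 under vancomycin. Iohexol samples thus lay just above and cisplatin samples just below all controls, while vancomycin samples fell within the control range. The log2 fold changes were 0.59 (standard error 0.25), -0.50 (0.27) and -0.13 (0.28) under iohexol, cisplatin and vancomycin. Between the drugs the samples of iohexol and cisplatin did not overlap, with a log2 difference of cisplatin minus iohexol of -1.07 (standard error 0.24). AQP11 lies within CLNS1A, a gene on the opposite strand with which it shares 0 exon bases. CLNS1A was at 50.1 to 52.2 CPM in the control group, 34.7 to 42.3 under iohexol, 42.2 to 49.5 under cisplatin and 42.8 to 56.3 under vancomycin, and its log2 fold change under iohexol was -0.38 (SE 0.10, adjusted p = 0.0226 in edgeR's test).

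**Figure D3:**
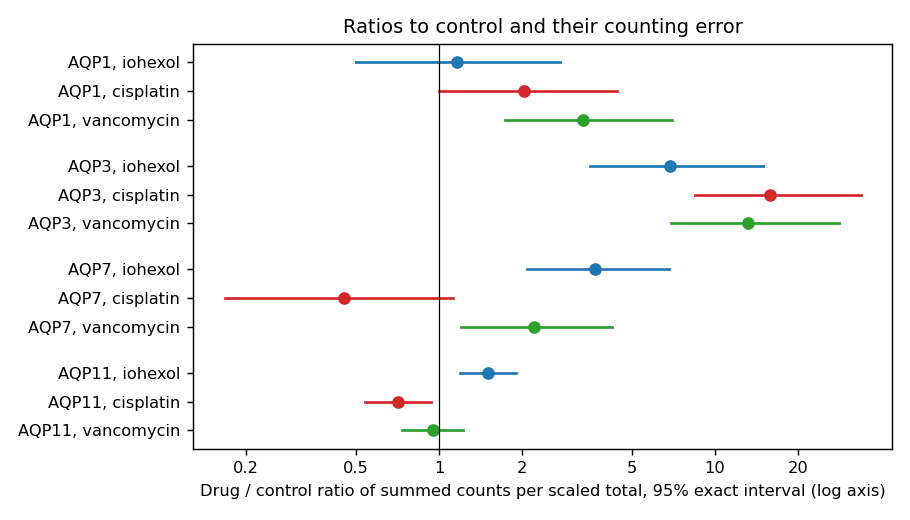
Ratio of drug to control (horizontal, log axis) for each of the 4 genes and 3 drugs, from counts summed over the 3 samples of a group and divided by the scaled totals, with 95% exact intervals for counting error only. The 3 AQP3 ratios lie between 6.88 and 15.9, and the AQP11 ratios between 0.71 and 1.5.

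Past the threshold for a differentially expressed gene (DEG, adjusted p under 0.05 in edgeR's test over all genes with a log2 fold change over 1 in size) were 2 of the 4 genes under iohexol (AQP3 and AQP7), 1 under cisplatin (AQP3) and 2 under vancomycin (AQP1 and AQP3), all of them higher than control. Over all genes tested, 4.02% were higher and 1.25% lower DEGs under iohexol, 7.62% and 8.72% under cisplatin and 10.8% and 7.65% under vancomycin. The genes were chosen on these comparisons, which share the control samples, and nothing is read from the counts. The filter left 3, 2 and 4 of the 4 genes to be tested. Each gene called here passed the filter on low counts through its drug samples, since its control samples alone would not have passed. A call in the lower direction was therefore not open to it. All samples of a drug lay above all controls for 3 genes under iohexol (18.6% of genes tested), 2 under cisplatin (32.6%) and 2 under vancomycin (33.9%), and below all controls for AQP11 under cisplatin (32.5%). The 2 under cisplatin were AQP3 and AQP1, of which AQP1 was not tested there, so that the share does not cover it. The share of genes below all controls was 19.4% under iohexol and 29.3% under vancomycin, where none of the 4 genes lay there.

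Among the family genes outside the 4, AQP9 was detected under vancomycin. This aquaglyceroporin, known from liver cells and leukocytes, had 11, 16 and 16 counts in the vancomycin samples, 0, 0 and 3 in the control samples, 0, 0 and 2 under iohexol and 0, 0 and 1 under cisplatin. All vancomycin samples lay above all other samples, and the fitted log2 fold change against control was 3.59 (standard error 0.77). AQP9 passed the filter on low counts through its vancomycin samples alone and was singled out for its level there, so that no p-value is given. The ratio of summed counts was 13.7 (95% exact interval 4.38 to 69), and since the 3 control counts came from control replicate 3 alone, the fitted log2 fold change was 6.81 without that sample, a value that rests on the prior count and is no bound. AQP9 lies within ALDH1A2, a gene of retinoic acid synthesis on the opposite strand, and shares 10.9% of its exon bases with it. ALDH1A2 moved the other way, from 16 to 25 counts in the control samples to 6 to 9 under vancomycin (log2 fold change -1.71, standard error 0.43, adjusted p = 0.0016 from the same edgeR test). Of the other 9 protein-coding family genes, MIP, AQP4 and AQP8 reached at most 5 counts in a sample, AQP2, AQP5, AQP6, AQP10 and AQP12B at most 2, and AQP12A had 0 counts throughout.

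The genes around the members were taken as a comparison by position. Nearest to AQP3 and AQP7 on chromosome 9 lie NOL6, a nucleolar protein gene, NFX1, CHMP5, ANKRD18B and UBE2R2. With iohexol their log2 fold changes were between -0.24 and 0.32, and the smallest adjusted p in edgeR's test was 0.0866, for UBE2R2. With cisplatin NOL6 (0.78, standard error 0.08) and CHMP5 (0.66, 0.09) were higher and UBE2R2 (-0.80, 0.08), ANKRD18B (-0.42, 0.14) and NFX1 (-0.24, 0.08) lower than control. With vancomycin CHMP5 was higher by 0.76 (0.12) and UBE2R2 by 0.27 (0.09), and NOL6 lower by a log2 fold change of -0.56 (0.11). All 5 kept a log2 fold change under 1 in size with the 3 drugs, so that they were not DEGs, against 5.28% of all genes under iohexol, 16.3% under cisplatin and 18.5% under vancomycin. BAG1, a co-chaperone gene on the far side of CHMP5 from AQP7, was a DEG under vancomycin (1.36, 0.12) and was at 0.43 (0.15) under iohexol and 0.32 (0.11) under cisplatin. Of the 6 nearest detected protein-coding genes of AQP1, an adjusted p under 0.05 was reached by GARS under iohexol (0.36), by GGCT (0.44), GARS (-0.46) and AVL9 (-0.42) under cisplatin and by NOD1 under vancomycin (0.44). Near AQP11, MYO7A was a DEG under iohexol (log2 fold change 3.01, standard error 0.23) and vancomycin (2.26, 0.29), and AAMDC under vancomycin (1.07, 0.25). An adjusted p under 0.05 in edgeR's test was also reached there by CLNS1A under iohexol (-0.38). Under cisplatin it was reached by PAK1 (-0.27) and RSF1 (-0.58), and under vancomycin by PAK1 (0.40) and INTS4 (0.34).

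**Figure D4:**
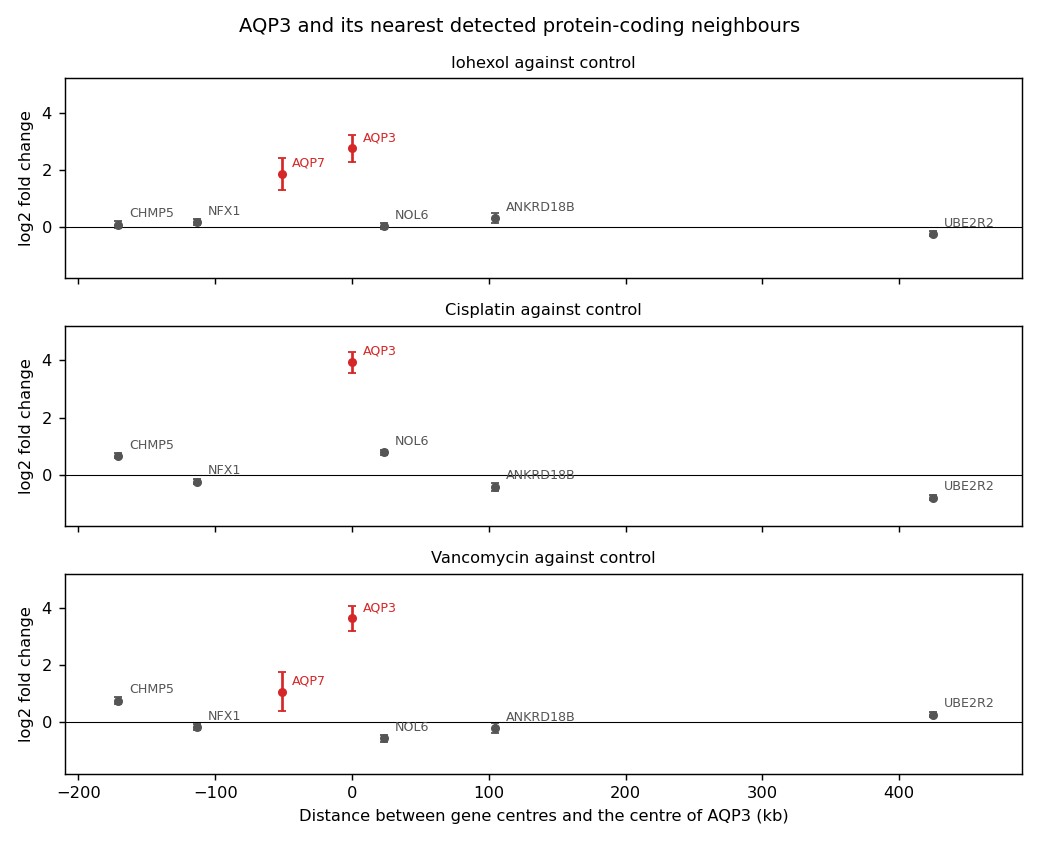
log2 fold change against control (vertical, error bars are standard errors) of AQP3, AQP7 and the nearest detected protein-coding genes, by the distance of their centres from that of AQP3 in kb (horizontal), with 1 panel per drug. AQP3 stands at 2.75, 3.94 and 3.64, and its neighbours other than AQP7 lie between -0.80 and 0.78, while AQP7 was not tested under cisplatin.

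The genes most like each member over the 12 samples were found by the root mean square difference of log2 CPM after each gene was centred on its control mean. These genes were picked on the values given below, so that a pattern shared with the member follows from the choice. Nearest to AQP3 were DLL4, a Notch ligand, at a distance of 0.78, FOSB, an AP-1 subunit, at 0.85, and DUSP4, a phosphatase of MAP kinases, at 0.86. DLL4 was above its control mean by 1.27 under iohexol, 2.28 under cisplatin and 2.85 under vancomycin on this scale, where AQP3 was above its own by 2.18, 3.38 and 3.09. In the same order of drugs, FOSB was above its control mean by 0.67, 3.21 and 3.46, and DUSP4 by 1.91, 2.21 and 2.63. Nearest to AQP1 were MEA1 (0.32), WBP1 (0.33) and SLC22A17 (0.35), all of which were highest under vancomycin, at 1.58, 1.66 and 1.24 above their control means. Nearest to AQP7 were PVRIG (0.59), HFM1 (0.7) and PLSCR4 (0.7), which like AQP7 were higher than their control means under iohexol. With cisplatin these genes were at -0.09, -1.21 and -0.35 from their control means, where AQP7 was at -0.56. MEA1, WBP1 and PVRIG have 43.2%, 34.9% and 78.2% of their 31-base stretches in common with other annotated genes, so that their counts are uncertain.

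Genes that work with aquaporins were taken in 4 lists of 47 genes in all, written with earlier results of these data known. An adjusted p under 0.05 in edgeR's test was reached under iohexol by 9 higher and 5 lower genes of 42 tested, under cisplatin by 12 higher and 14 lower of 41 and under vancomycin by 18 higher and 11 lower of 42. Over all genes 11.2% were higher and 9.77% lower under iohexol, 29.2% and 30.6% under cisplatin and 29% and 28.8% under vancomycin. Without iohexol replicate 3 the lists held 22 such genes under iohexol in place of 14. The samples are labelled as replicates without a statement that they came from separate cultures, and the p-values measure the spread between these samples.

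In the osmotic response list, which holds osmolyte transporters, the enzyme AKR1B1, the transcription factor NFAT5, the kinase SGK1 and the chaperone HSPA4L, 5 of 8 genes were higher under iohexol, and the median log2 fold change was 0.70 against 0.01 over all genes. SLC5A3, the myo-inositol transporter, was higher by 2.64 (SE 0.11, adjusted p = 2.72e-08 from edgeR's test) and AKR1B1, which makes sorbitol, by 2.36 (0.08, adjusted p = 6.99e-09). SGK1, a kinase that acts on ion channels, was lower under iohexol (log2 fold change -0.98, standard error 0.10) and vancomycin (-1.14, 0.09). Cisplatin gave 3 higher and 3 lower genes, among them SLC6A6, the taurine transporter, at -1.15 (0.08, adjusted p = 7.62e-10 in the edgeR fit), and vancomycin 2 higher and 4 lower, with medians of 0.15 and -0.18. The 2 higher under vancomycin were SLC6A12 (1.86, standard error 0.18) and AKR1B1 (0.59, 0.08). SLC6A12 also had the largest log2 fold change of the list, 4.08 (0.18) under iohexol. SLC5A3 lies within MRPS6 and shares 2.36% of its exon bases with it, and 13.9% of the sequence of AKR1B1 occurs in other genes.

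The list of glycerol handling held 13 genes, most of them enzymes that release glycerol from fat or bind it into lipids. With iohexol 1 of 13 passed an adjusted p of 0.05 and 2 an unadjusted p of 0.05. It was GK5, a glycerol kinase family member, lower at -0.48 (standard error 0.12), which was lost without iohexol replicate 1, while without iohexol replicate 3 the number was 5. With cisplatin 3 were higher and 3 lower (3 in all without cisplatin replicate 1), led by MGLL, the lipase that frees glycerol from monoglycerides, at -0.91 (0.06, adjusted p = 9.71e-10 from edgeR's test). With vancomycin 6 were higher and 3 lower. The acyltransferase gene GPAT3 was higher by 1.13 (0.11, adjusted p = 7.5e-09), while GPAM, which codes for the mitochondrial acyltransferase, was at -0.92 (0.11, adjusted p = 1.32e-07 in the same fit). The medians were 0.09, -0.05 and -0.01 under iohexol, cisplatin and vancomycin.

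Hydrogen peroxide, which AQP3 and AQP11 can carry, is made and removed by the genes of the next list. With vancomycin 8 of 12 tested genes were higher and 1 lower, with a median log2 fold change of 0.49 against -0.01 over all genes. SOD2, the mitochondrial superoxide dismutase, rose by 2.48 (SE 0.09, adjusted p = 2.77e-16 from edgeR's test), PRDX5, a peroxiredoxin, by 2.39 (0.12, adjusted p = 6.16e-14) and CYBA, a subunit of NADPH oxidases, by 1.52 (0.10, adjusted p = 3.47e-12). The mitochondrial peroxiredoxin PRDX3 was lower at -0.82 (0.09, adjusted p = 6.85e-08 in the edgeR fit). SOD2 was also higher under iohexol, by 1.08 (0.08), in a list with 1 higher and 1 lower gene (4 in all without iohexol replicate 3). Cisplatin gave 3 higher and 4 lower of 11 tested, a number that fell to 3 without cisplatin replicate 2 and to 4 without control replicate 2, control replicate 3 or cisplatin replicate 3. Of the SOD2 sequence 23.5% occurs in other genes. A second annotated gene named SOD2 (ENSG00000285441) shares 5.12% of the exon bases of the SOD2 entry used here (ENSG00000112096).

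Salt and water transport of the tubule was represented by 12 genes, of which 9 were tested with each drug. SLC4A4, the basolateral bicarbonate exit of the proximal tubule, was lower under cisplatin, at -2.68 (SE 0.09, adjusted p = 1.82e-13 in edgeR's test), and under vancomycin at -0.96 (0.11, adjusted p = 3.62e-08). CLDN2, a claudin that lets sodium and water pass between cells, was at -2.02 (0.12) under cisplatin and -1.86 (0.13) under vancomycin, and KCNJ15, a potassium channel, at -1.88 (0.11) under cisplatin. ATP1B1, the beta subunit of the sodium pump, was higher under iohexol by 1.53 (0.09, adjusted p = 6.81e-07 in edgeR's test). In all, 3 genes were higher and 2 lower under iohexol, 3 and 4 under cisplatin and 2 and 3 under vancomycin. Of the 5 under iohexol, 3 were left without control replicate 2 and 2 without iohexol replicate 1. AQP1, the water path that accompanies these transporters in the proximal tubule, stayed under 1 CPM in every sample.

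**Figure D5:**
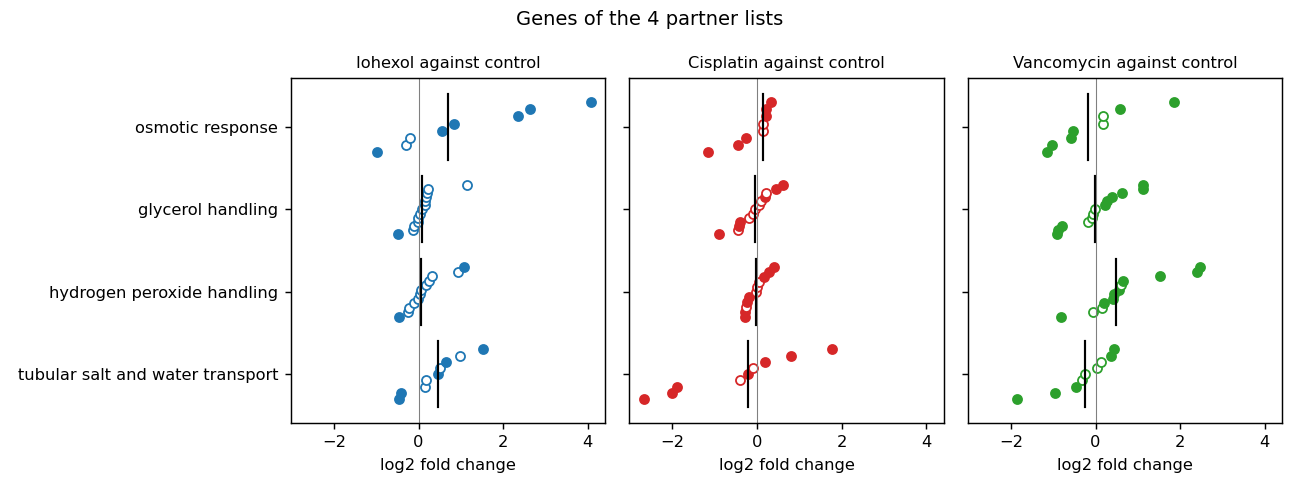
log2 fold change against control (horizontal) of the tested genes of the 4 lists (vertical), with 1 panel per drug and 1 point per gene, filled where the adjusted p was under 0.05, and a black line at the median of each list. The osmotic response list reaches its highest median, 0.70, under iohexol and the hydrogen peroxide list, 0.49, under vancomycin.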

How the data were processed

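RNA-seq counts of 12 HK-2 samples in 4 groups of 3 were analysed, with groups and replicate numbers taken from the sample labels. The authors deposited whole-number counts of reads per gene without normalization, and the submitters' processing notes name CASAVA 1.8, fastp, HISAT2 2.0.5, featureCounts 1.5.0-p3 and DESeq2 1.20.0. The strand setting of the counting is not given in the sources used here, and reads of overlapping genes on opposite strands cannot be told apart. Libraries were made with an NEBNext Ultra kit after binding to poly-T beads. Start and end of all 58735 genes were those of GENCODE 29 (GRCh38), which was used for exon overlaps and for 31-base stretches shared with other genes. Promoter sequences of 3 of the 4 genes were in the RefSeq table used (GRCh38.p14), where 34788 different sequences were searched.

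Each drug was compared with control in its own fit of 6 samples with edgeR 4.0.16 in R 4.3.3 (TMM factors, filterByExpr with a minimum count of 10 and a minimum total of 15, glmQLFit and glmQLFTest), with Benjamini-Hochberg adjustment across every gene tested. The standard error was the log2 fold change divided by the square root of F. Differences between drugs came from a fit of all 12 samples. CPM used total counts times the TMM factors of that fit, and log2 CPM a prior count of 2. Intervals of ratios were exact binomial (95%). The steps were tested on simulated counts. Figures were drawn with matplotlib 3.10.9.

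The members, lists and tests were chosen with earlier results of these data known. Named were the 4 genes, the rest of the family, the 4 genes with the smallest p of each list, the 3 most similar protein-coding genes of each member with a log2 fold change above 1 in size, and 3 protein-coding neighbours on each side. CLNS1A, ALDH1A2 and AC004691.2 were added because they overlap family genes, and SLC6A12 because it had the largest log2 fold change of the osmotic response list. As alternatives, DESeq2 1.42.0 was run, then limma 3.58.1 (voom, trend), RLE or no scaling factors, other filters, a fit of all groups, the unadjusted p, a replicate block and fits without each sample. Replicates differed by more than counting noise (chi-square per degree of freedom 2.34 to 17.5).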

Additional observations from a re-analysis of the deposited data

How the results depend on the processing

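Apart from fits that dropped a sample, the log2 fold changes of AQP3 ranged between 2.18 and 2.82 under iohexol, 3.39 and 4.16 under cisplatin and 3.05 and 3.69 under vancomycin, and the numbers of DEGs among the 4 genes were 2, 1 and 2 with all of these except that 10 counts in every sample gave 0, 0 and 0, since AQP1, AQP3 and AQP7 were then not tested. When single samples were dropped, these numbers were 1 to 2, 1 and 1 to 3 (1 under iohexol without control replicate 2 or 3 or iohexol replicate 1 or 2, and under vancomycin 1 without control replicate 2), and the partner genes with an adjusted p under 0.05 were 10 to 22 under iohexol, 19 to 28 under cisplatin and 26 to 29 under vancomycin. The pairing of equal replicate numbers was not borne out, since samples of different groups had a mean correlation of -0.0209 in 18 pairs with the same number and 0.0106 in 36 other pairs. With the replicate block 2, 1 and 2 of the 4 genes and 12, 26 and 31 partner genes were called, against 14, 26 and 29 without it, and SLC4A4 and CLDN2 were no longer called under iohexol (0.061 and 0.0608 as adjusted p in edgeR), which left 3 tubular transport genes in place of 5. Scaling by library size only shifted the median of all genes by 0.22 under cisplatin, and there SOD2 changed from -0.03 to 0.19 and ATP1B1 from -0.21 to 0.01. A fit of all 12 samples gave 3 osmotic response and 3 hydrogen peroxide genes under cisplatin in place of 6 and 7. AQP11 under cisplatin ranged from -0.53 to -0.29. Where a setting kept genes that the filter had removed, the log2 fold changes of AQP1 were 0.19 to 0.21 under iohexol and 0.98 to 1 under cisplatin, and those of AQP7 -1.18 to -1.13 under cisplatin. The cause of these changes was not tested. Depth limits AQP3, AQP1 and AQP7, with 10, 12 and 16 counts in the control group.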
